A study of Mus musculus with 19 samples.

Results

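IL-6 family cytokines act through receptors that contain the shared chain gp130, and the genes described here encode that signalling machinery: the receptor chains Il6st (gp130), Il6ra, Lifr and Osmr, the Janus kinases Jak1 and Jak2, the transcription factors Stat3 and Stat5b, and the feedback inhibitors Socs2 and Socs3. They were chosen by name. Of the 10 genes, 9 were among the 12629 genes of the expression table. Il6ra, the IL-6 binding chain, was not among them and was not analysed here.

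When a cytokine joins its receptor chains, the JAKs bound to those chains phosphorylate each other, the receptor and STAT proteins, which then enter the nucleus as dimers and activate transcription. SOCS genes are among the targets of STATs, and SOCS proteins bind JAKs or receptors and shut the signal down. In the DRG, axotomy of the peripheral branch is known for activating STAT3 in sensory neurons. The injury here was a crush of the dorsal root, which holds the central branch. SOCS3 is known to restrain axon growth in several kinds of injured neuron.

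The libraries were made from fluorescent cells sorted from the DRGs of adult animals 8 weeks after intraganglionic injection of viral vectors. Control animals received AAV5-fGFP, which the labels call wild-type, and the others received AAV5-α9-V5 with AAV5-kindlin1-GFP, labelled a9k1 overexpression, with or without a dorsal root crush at the time of injection. Without crush there were 5 libraries with GFP (GFP-naive) and 6 with the integrin vectors (α9k1-naive), and with crush there were 4 of each (GFP-crush and α9k1-crush). Every animal thus carried a vector and a fluorescent protein, and the naive groups were injected but not crushed. According to the methods of the study, CMV promoters drove fGFP and kindlin1-GFP and a CAG promoter drove α9-V5. As the fluorescent tag was on kindlin-1, a sorted cell need not have carried α9. Levels of the vector genes differed between the α9k1 groups. Log2 values of Fermt1 (kindlin-1) were 5.18 to 6.00 in α9k1-naive and 6.42 to 7.73 in α9k1-crush. Those of Itga9 (α9) were 2.38 to 5.16 and 5.53 to 7.51, beside 1.77 to 2.40 in GFP-naive and 0.90 to 1.92 in GFP-crush. The part of these levels in the crush differences was not tested. The methods name Lewis rats and the labels name C57BL/6 mice, and the reads were aligned to the mouse genome (GRCm38), from which 3.87% to 4.05% of aligned bases differed.

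Libraries held 36.4 to 87.6 M read pairs, of which 47.5% to 54.1% of the reads aligned. Values are log2 expression, normalised by the authors, and a gene is called changed at an adjusted p under 0.1 in a limma fit that includes 3 covariates of library quality. A log2FC is the coefficient of that fit and can differ from the difference of the group means. The third covariate lay between -4.49 and -2.55 in the 4 α9k1-crush libraries and between -1.59 and 5.03 in all others, so that quality and group cannot be fully told apart in comparisons with α9k1-crush, and values without covariates are given beside those of the genes named in these comparisons. All 15 listed neuronal markers were in the table, but so were all 15 glial, 12 of 15 macrophage, 5 of 8 endothelial and 6 of 7 fibroblast markers, with Cx3cr1, Itgam, Mrc1, Cdh5, Kdr, Pecam1 and Pdgfra not in the table. In such bulk samples, fewer cells of a type and less RNA per cell cannot be told apart. The p-values measure the spread between libraries that are labelled as replicates.

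In naive DRGs, 5 of the 9 genes were higher with α9k1 than with GFP, namely Socs3, Osmr, Socs2, Stat3 and Jak2, and 1 was lower, Jak1. Over all genes, 11.4% were called higher and 17.6% lower in this comparison. Socs3 differed by a log2FC of 2.56 (SE 0.16), Osmr by 1.87 (SE 0.22), Socs2 by 1.34 (SE 0.20), Stat3 by 1.17 (SE 0.12) and Jak2 by 1.15 (SE 0.25). For these 5 genes every α9k1-naive library lay above every GFP-naive library, which held for 8.43% of all genes. The median log2FC of the 9 genes was 1.15, beside -0.08 for all genes. Without the covariates 5 were higher and 2 lower (Jak1 and Lifr), in a fit that called 16.5% of all genes higher and 29.5% lower.

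After dorsal root crush, only Socs3 of the 9 genes passed the test between α9k1 and GFP, with a log2FC of 2.79 (SE 0.34), where 0.728% of all genes were called higher and 0.182% lower. Without the covariates 6 of the 9 were higher and 1 was lower, in a fit that called 29.6% of all genes higher and 28.3% lower. Il6st, Stat3 and Socs3 were higher in every α9k1-crush library than in any GFP-crush library, as were 20.0% of all genes. With only these 8 libraries and the covariates in the fit, Socs3 kept its log2FC (2.71, limma adjusted p = 0.389) but lost its call, as did every other gene of the table. The strip plots show each of these patterns library by library.

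**Figure D1:**
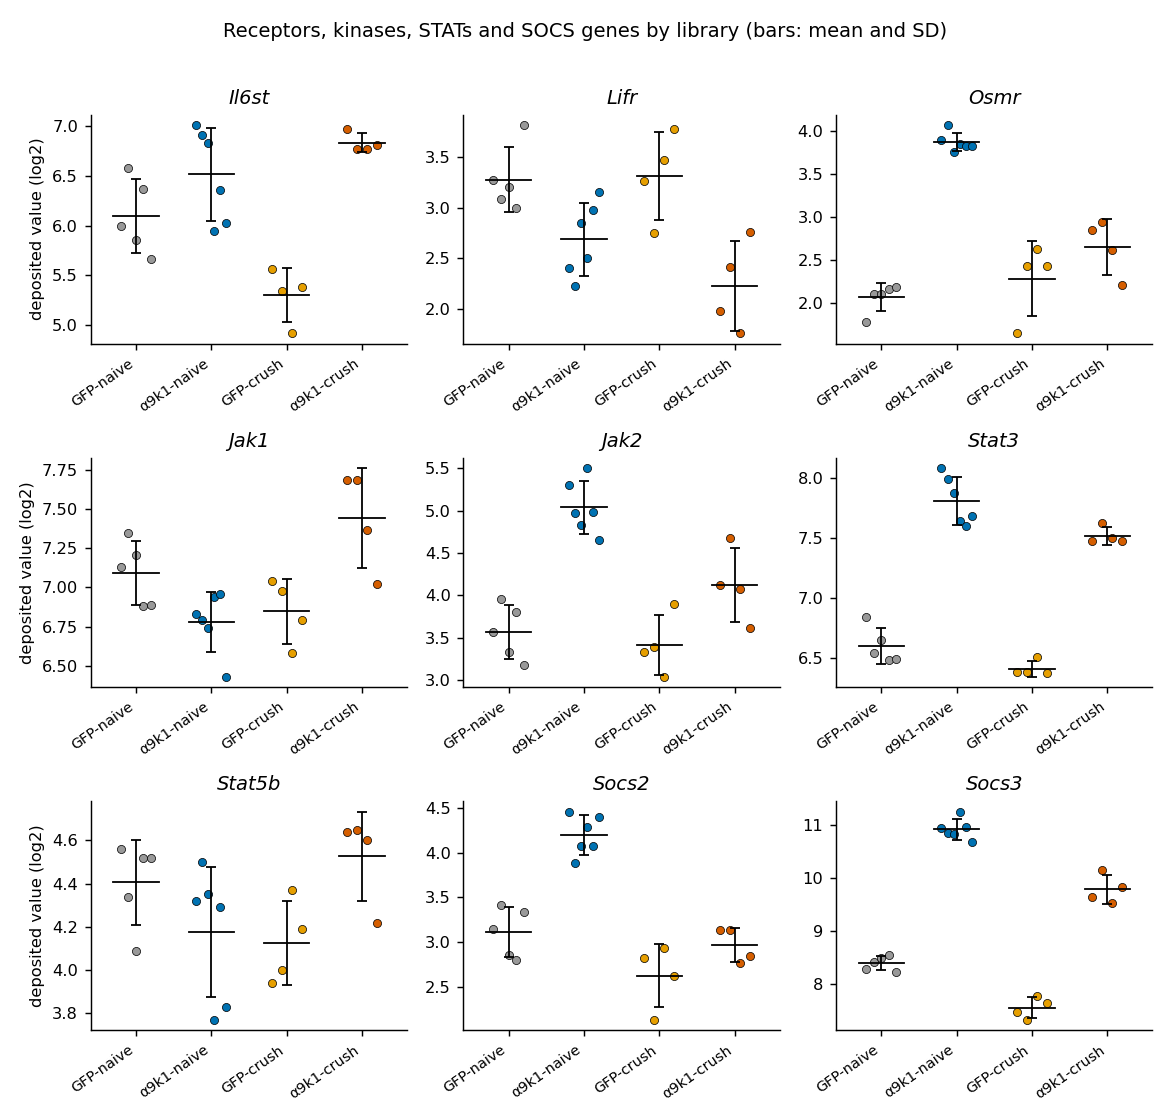
Deposited log2 values of the 9 genes (y axis, a separate scale in each panel) in the 4 groups, with 1 point per library and bars for the mean and SD. Socs3 falls from the naive to the crushed α9k1 libraries and on to GFP-naive and GFP-crush, with no overlap, from 11.26 down to 7.33, while Osmr, Jak2 and Socs2 stand highest in the 6 α9k1-naive libraries or nearly so.

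Among the receptor chains, Il6st (ENSMUSG00000021756, chr13:112464070-112510086, GRCm38) encodes gp130, through which all members of the family signal. Its log2 values were 6.00, 6.58, 5.86, 6.37 and 5.67 in GFP-naive, 5.57, 5.34, 4.92 and 5.38 in GFP-crush, and 6.97, 6.77, 6.77 and 6.81 in α9k1-crush. In α9k1-naive they ran from 5.95 to 7.01 with a median of 6.60. The GFP-crush libraries were the lowest and overlapped no other group, while α9k1-naive overlapped with both GFP-naive and α9k1-crush. Il6st fell with crush in GFP animals by 0.77 on the log2 scale (SE 0.17, limma adjusted p = 0.0105). Between α9k1-crush and GFP-crush its log2FC was 0.56 (SE 0.38, limma adjusted p = 0.708) with covariates and 1.53 (SE 0.24, limma adjusted p = 5.77e-05) without, so that the call depended on the covariates.

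Osmr (ENSMUSG00000022146, chr15:6813577-6874969) encodes the chain that pairs with gp130 in the oncostatin M receptor. Its values were 1.78, 2.11, 2.11, 2.17 and 2.19 in GFP-naive and 3.76 to 4.07, median 3.84, in α9k1-naive. They were 1.65, 2.43, 2.63 and 2.43 in GFP-crush and 2.85, 2.94, 2.62 and 2.21 in α9k1-crush. The α9k1-naive libraries stood above all others, and the remaining groups lay close together. The mean value of Osmr lay among those of the lowest 25% of genes. The α9k1 effect without crush was 1.87 (SE 0.22, limma adjusted p = 2.91e-05). The crush effect in α9k1 animals was -1.42 (SE 0.40, limma adjusted p = 0.052) with covariates and -1.22 (SE 0.17, limma adjusted p = 1.06e-05) without, with all 4 crush libraries below all 6 naive ones.

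Lifr (ENSMUSG00000054263, chr15:7129559-7197489) encodes the LIF receptor chain, which pairs with gp130 for LIF, CNTF and cardiotrophin-1. In naive DRGs its mean was 3.28 ± 0.32 (SD, n = 5) with GFP and 2.69 ± 0.36 (SD, n = 6) with α9k1. After crush the means were 3.32 ± 0.43 (SD, n = 4) with GFP and 2.23 ± 0.45 (SD, n = 4) with α9k1. Neighbouring groups overlapped, and Lifr passed the test in none of the comparisons with covariates. Without them it was lower with α9k1 both in naive DRGs (log2FC -0.59, SE 0.22) and after crush (-1.09, SE 0.26). It was the one receptor chain of the 3 whose mean was lower with α9k1 in both states.

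Of the kinases, Jak2 was higher and Jak1 lower with α9k1 in naive DRGs, the latter near the threshold. Jak2 (ENSMUSG00000024789, chr19:29251828-29313080) measured 3.57, 3.96, 3.33, 3.80 and 3.18 in GFP-naive and 4.65 to 5.50, median 4.98, in α9k1-naive. It measured 3.33, 3.39, 3.04 and 3.90 in GFP-crush and 4.12, 4.68, 4.07 and 3.61 in α9k1-crush. Both GFP groups overlapped, and the α9k1-naive group overlapped with α9k1-crush in a single library. The α9k1 effect without crush was 1.15 (SE 0.25, limma adjusted p = 0.00409).

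Jak1 (ENSMUSG00000028530, chr4:101152367-101265282), the kinase most closely tied to gp130 signalling, measured 7.13, 7.35, 7.21, 6.88 and 6.89 in GFP-naive and 6.43 to 6.96, median 6.81, in α9k1-naive. These groups overlapped. Jak1 was lower with α9k1 in naive DRGs by a log2FC of -0.49 (SE 0.18, limma adjusted p = 0.0738). The call was lost, at an adjusted p of 0.111 to 0.438 and a log2FC of -0.50 to -0.33, when α9k1-naive replicate 6, GFP-crush replicate 2 or 3, or GFP-naive replicate 1 or 2 was left out. It was also lost with median centring (-0.44, limma adjusted p = 0.115) and with the replicate number as a block (-0.29, limma adjusted p = 0.364). Its values were 7.04, 6.98, 6.58 and 6.79 in GFP-crush and 7.69, 7.69, 7.37 and 7.02 in α9k1-crush. All 4 of the latter lay above the α9k1-naive libraries (17.4% of all genes did so), with a log2FC of 0.71 (SE 0.33, limma adjusted p = 0.233) with covariates and 0.66 (SE 0.15, limma adjusted p = 0.00118) without. Exons of Jak1 overlap those of Raver2 on the other strand, and the libraries do not keep strand.

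Stat3 (ENSMUSG00000004040, chr11:100885098-100939540) encodes the principal STAT of gp130. Its values were 6.84, 6.54, 6.65, 6.48 and 6.49 in GFP-naive and 6.38, 6.38, 6.51 and 6.37 in GFP-crush. They were 7.60 to 8.08, median 7.78, in α9k1-naive and 7.47, 7.62, 7.50 and 7.47 in α9k1-crush. Every α9k1 library thus lay above every GFP library, and crush and naive overlapped within each vector. The α9k1 effect was 1.17 (SE 0.12, limma adjusted p = 4.62e-06) in naive DRGs. After crush it was 0.57 (SE 0.25, limma adjusted p = 0.522) with covariates and 1.11 (SE 0.11, limma adjusted p = 1.46e-06) without.

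Stat5b (ENSMUSG00000020919, chr11:100780731-100850724), a STAT that growth hormone and other cytokine receptors use, had group means between 4.13 ± 0.20 (SD, n = 4, GFP-crush) and 4.53 ± 0.21 (SD, n = 4, α9k1-crush), and all 4 groups overlapped with their neighbours. It passed no test with covariates in the 5 comparisons, although in naive DRGs it was called lower with α9k1 when GFP-crush replicate 2 or 3 was left out (log2FC -0.46 to -0.45, limma adjusted p 0.0508 to 0.0752). Between α9k1-crush and GFP-crush its log2FC was -0.46 (SE 0.38, limma adjusted p = 0.77) with covariates and 0.40 (SE 0.17, limma adjusted p = 0.0518) without. For crush in α9k1 animals it was -0.25 (SE 0.31, limma adjusted p = 0.71) with and 0.35 (SE 0.15, limma adjusted p = 0.0621) without, so that in both the sign and the call depended on the covariates. Stat5b and its neighbour Stat5a are near-identical copies between which reads could be split, and Stat3 exons overlap those of Stat5a on the other strand.

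Socs3 (ENSMUSG00000053113, chr11:117966079-117970047, minus strand) encodes the inhibitor that binds gp130 and its JAKs. It measured 8.29, 8.43, 8.49, 8.55 and 8.23 in GFP-naive and 10.68 to 11.26, median 10.90, in α9k1-naive. It measured 7.47, 7.33, 7.78 and 7.65 in GFP-crush and 9.64, 10.16, 9.54 and 9.83 in α9k1-crush. No group overlapped with another. The α9k1 effect was 2.56 without crush (limma adjusted p = 2.59e-08), a fitted 5.89-fold difference, and 2.79 after crush (limma adjusted p = 9.15e-04), a fitted 6.92-fold difference. Without covariates the log2FC after crush was 2.23 (SE 0.14). Crush lowered Socs3 in GFP animals by a log2FC of -0.84 (SE 0.16, limma adjusted p = 0.00341). In α9k1 animals its crush log2FC was -0.61 (SE 0.28, limma adjusted p = 0.226) with covariates and -1.13 (SE 0.13, limma adjusted p = 1.74e-06) without. With covariates it was called when α9k1-crush replicate 2 or α9k1-naive replicate 6 was left out (log2FC -0.78 to -0.70, limma adjusted p 0.07 to 0.0726).

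Socs2 (ENSMUSG00000020027, chr10:95385362-95417180), best known as an inhibitor of growth hormone signalling, measured 3.15, 3.42, 2.85, 2.80 and 3.34 in GFP-naive and 3.88 to 4.46, median 4.18, in α9k1-naive. It measured 2.82, 2.13, 2.93 and 2.62 in GFP-crush and 3.13, 3.13, 2.77 and 2.84 in α9k1-crush. Only the α9k1-naive group stood clear of the rest. Its α9k1 effect was 1.34 (SE 0.20, limma adjusted p = 2.31e-04) without crush and 0.68 (SE 0.43, limma adjusted p = 0.68) after crush, where it was 0.34 (SE 0.18, limma adjusted p = 0.122) without covariates.

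The Socs3 promoter is shown because Socs3 was the gene of the 9 with the largest α9k1 difference in both states and because, of the 8 with a promoter entry, it was the only one whose promoter held the STAT-type motif. Socs2 had no entry. The motif searched was TTCNNNGAA, which reads the same on both strands and is the palindrome that STAT dimers are known to bind. Promoters were 300 bases of RefSeq sequence (GRCm38.p6) around each RefSeq gene start, and the letters are those of the mouse reference. The RefSeq start of Socs3, base 117969366 on chromosome 11, lies inside the span given above from the gene annotation, which begins further upstream at base 117970047. The motif, in capitals, begins at -154 and ends at -146, counting the RefSeq start as 0.
Socs3, chr11:117969317-117969616, minus strand: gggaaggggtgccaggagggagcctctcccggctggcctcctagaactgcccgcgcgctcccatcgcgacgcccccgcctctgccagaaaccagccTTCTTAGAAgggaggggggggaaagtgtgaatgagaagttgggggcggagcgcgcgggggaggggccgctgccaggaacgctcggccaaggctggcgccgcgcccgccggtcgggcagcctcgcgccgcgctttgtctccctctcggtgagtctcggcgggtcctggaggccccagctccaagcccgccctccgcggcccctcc

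The same motif was in 6 of the 24 listed STAT3 target genes with a promoter entry (Irf1, Icam1, Sbno2, Gfap, Tnfrsf1a and Reg3b). Counted in the same way by gene, it was in 669 of the 8366 genes of the expression table with a promoter entry (8%), and counted by promoter in 8.3% of all 32851 entries. Irf1 and Icam1, whose values are given further on, held it at these places, with 10 bases on either side.
Irf1, chr11:53769914-53769942, plus strand: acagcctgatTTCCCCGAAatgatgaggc
Icam1, chr9:21015888-21015916, plus strand: ggcgcgaggtTTCCCGGAAagtggccccg
A match is a run of letters in this window and was not tested for binding.

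In GFP animals 3 of the 9 genes fell with crush (Socs3, Il6st and Socs2) and none rose, where 15.7% of all genes were called lower and 7.39% higher. Of the 9 genes, Socs3 and Il6st were lower in every GFP-crush library than in any GFP-naive library, as were 12.2% of all genes. The Socs2 log2FC was -0.59 (SE 0.20, limma adjusted p = 0.0613) with overlapping groups. That call was lost without GFP-crush replicate 2 or 4 or GFP-naive replicate 2, at a log2FC of -0.58 to -0.35 and an adjusted p of 0.106 to 0.284, and also with quantile normalisation or median centring. The same 3 genes were lower without covariates, when 20.1% of all genes were called lower and 11.0% higher. With only the 9 GFP libraries fitted, none of the 3 was called, at log2FC of -0.59 for Socs3, -0.54 for Il6st and -0.82 for Socs2, and 1 gene of the whole table was. The intervals of the other 6 genes included 0, for Stat3 from -0.39 to 0.11 and for Osmr from -0.27 to 0.68.

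In α9k1 animals crush lowered 3 of the 9 (Osmr, Socs2 and Stat3), where 5.27% of all genes were called lower and 4.47% higher. Osmr and Socs2 were lower in every α9k1-crush library than in any α9k1-naive library, which held for 16.1% of all genes, and so was Socs3. The log2FC of Socs2 was -1.24 (SE 0.36, limma adjusted p = 0.0553) and that of Stat3 -0.73 (SE 0.21, limma adjusted p = 0.0541), beside -1.23 and -0.29 without covariates. Without covariates 5 of the 9 were lower (Osmr, Jak2, Stat3, Socs2 and Socs3) and 2 higher (Jak1 and Stat5b), when 27.1% of all genes were called lower and 28.5% higher. These calls lay near the threshold: without α9k1-naive replicate 1 none of the 9 was called, without α9k1-naive replicate 2 or 4 or GFP-naive replicate 1 a single gene was, and the call of 1 or more of the 3 was also lost without α9k1-crush replicate 3 or 4, GFP-crush replicate 2 or GFP-naive replicate 3 or 4. Their log2FC stayed between -1.37 and -1.13 for Osmr, -1.27 and -1.01 for Socs2 and -0.74 and -0.60 for Stat3 in the fits that lost the call, at an adjusted p of 0.101 to 0.169. All 3 calls were also lost with the replicate number as a block, at -1.39 for Osmr (limma adjusted p = 0.257), -1.11 for Socs2 (0.312) and -0.82 for Stat3 (0.147). With only the 10 α9k1 libraries fitted they were lost at -2.30 (limma adjusted p = 0.134), -1.53 (0.337) and -1.34 (0.236).

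**Figure D2:**
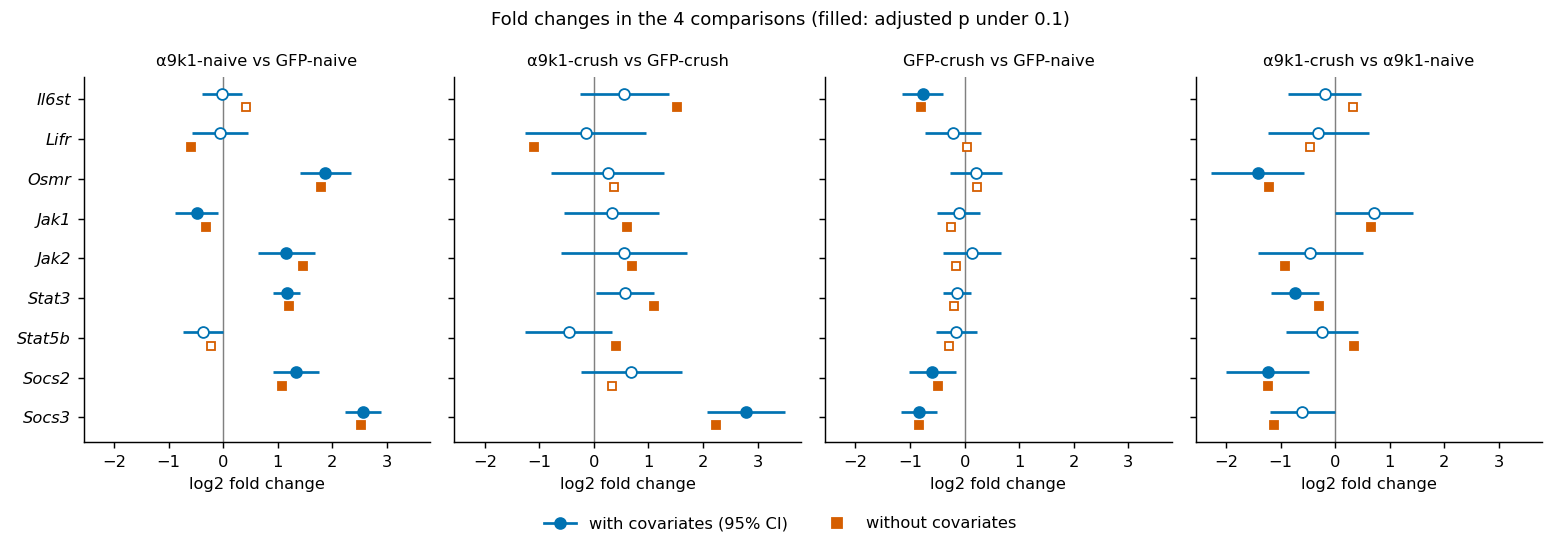
The log2 fold change (x axis) of each gene in the 4 comparisons, with covariates (circles, with 95% intervals) and without (squares), filled where the adjusted p was under 0.1. Intervals are widest in the comparisons with α9k1-crush, and Socs3 is the only gene filled in both α9k1 versus GFP panels with covariates.

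Whether the α9k1 effect differed with crush was tested as an interaction, the α9k1 effect after crush minus that in naive DRGs. None of the 9 genes passed in limma, where 2.20% of all genes did in either direction, and 2 had an unadjusted p under 0.05. These were Osmr, at -1.62 (SE 0.46, limma adjusted p = 0.117), and Stat3, at -0.59 (SE 0.24, limma adjusted p = 0.273). Without covariates Osmr was at -1.44 and Stat3 at -0.11, and limma called 6, with Il6st, Jak1 and Stat5b (0.63, limma adjusted p = 0.0377, beside -0.10 with covariates) higher and Osmr, Jak2 and Socs2 lower, in a fit that called 23.3% of all genes higher and 16.1% lower. Osmr was also called without α9k1-crush replicate 2, GFP-crush replicate 1 or GFP-naive replicate 1, with a log2 difference of -1.93 to -1.59 (adjusted p 0.0442 to 0.0965). For Socs3 the interaction was 0.23, with a 95% interval from -0.45 to 0.92, and -0.29 without covariates.

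Of the ligands of the family, Il6, Cntf and Ctf1 are described here, and Clcf1, Ctf2, Ebi3, Il11, Il27, Lif and Osm were not in the table. Il6, which encodes the founding cytokine of the family, measured 1.29, 1.49, 1.87, 2.43 and 1.89 in GFP-naive and 7.44 to 7.67, median 7.48, in α9k1-naive. It measured 0.37, 0.26, 0.52 and 0.57 in GFP-crush and 5.38, 5.67, 5.22 and 5.19 in α9k1-crush. No group overlapped with another, in the same order as for Socs3. The α9k1 effect on Il6 was 5.83 (SE 0.20, limma adjusted p = 9.30e-11) in naive DRGs and 5.71 (SE 0.43, limma adjusted p = 1.63e-05) after crush. Crush lowered it by a log2FC of -1.44 (SE 0.20) in GFP and -1.56 (SE 0.36) in α9k1 animals. Without covariates the α9k1 effect on Il6 after crush was 4.93 and the crush effect in α9k1 animals -2.14.

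Cntf encodes ciliary neurotrophic factor, which Schwann cells make, and it moved the other way. It measured 6.36, 6.58, 6.24, 6.42 and 6.19 in GFP-naive, 2.41 to 4.09 with a median of 3.10 in α9k1-naive, 7.19, 7.29, 7.01 and 7.80 in GFP-crush and 6.52, 7.11, 6.15 and 6.89 in α9k1-crush. The α9k1-naive libraries stood below all others. Cntf was lower with α9k1 in naive DRGs by a log2FC of -3.46 (SE 0.31, limma adjusted p = 1.73e-06), and crush raised it by 1.09 (SE 0.32) in GFP and by 3.34 (SE 0.57) in α9k1 animals. Between α9k1-crush and GFP-crush its log2FC was -1.22 (SE 0.69, limma adjusted p = 0.633) with covariates and -0.65 (SE 0.27, limma adjusted p = 0.0512) without. The crush effect in α9k1 animals was 3.47 without covariates.

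Ctf1, cardiotrophin-1, passed no test with covariates, with group means from 2.40 ± 0.36 (SD, n = 4, α9k1-crush) to 3.51 ± 0.54 (SD, n = 5, GFP-naive). Without covariates Ctf1 was lower with α9k1 after crush (-0.64, SE 0.23) and lower with crush in α9k1 animals (-1.11, SE 0.21). Cntfr, the CNTF binding chain, measured 4.24, 4.39, 3.33, 3.63 and 4.78 in GFP-naive and at most 3.35 in the other 3 groups. It was lower with α9k1 in naive DRGs (-1.17, SE 0.26) and after crush in GFP animals (-1.05, SE 0.27). The IL-11 receptor genes Il11ra1 and Il11ra2, near-identical copies between which reads could be split, were not called in the α9k1 comparisons, and Il11ra2 was lower after crush in GFP animals (-0.37, SE 0.13).

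**Figure D3:**
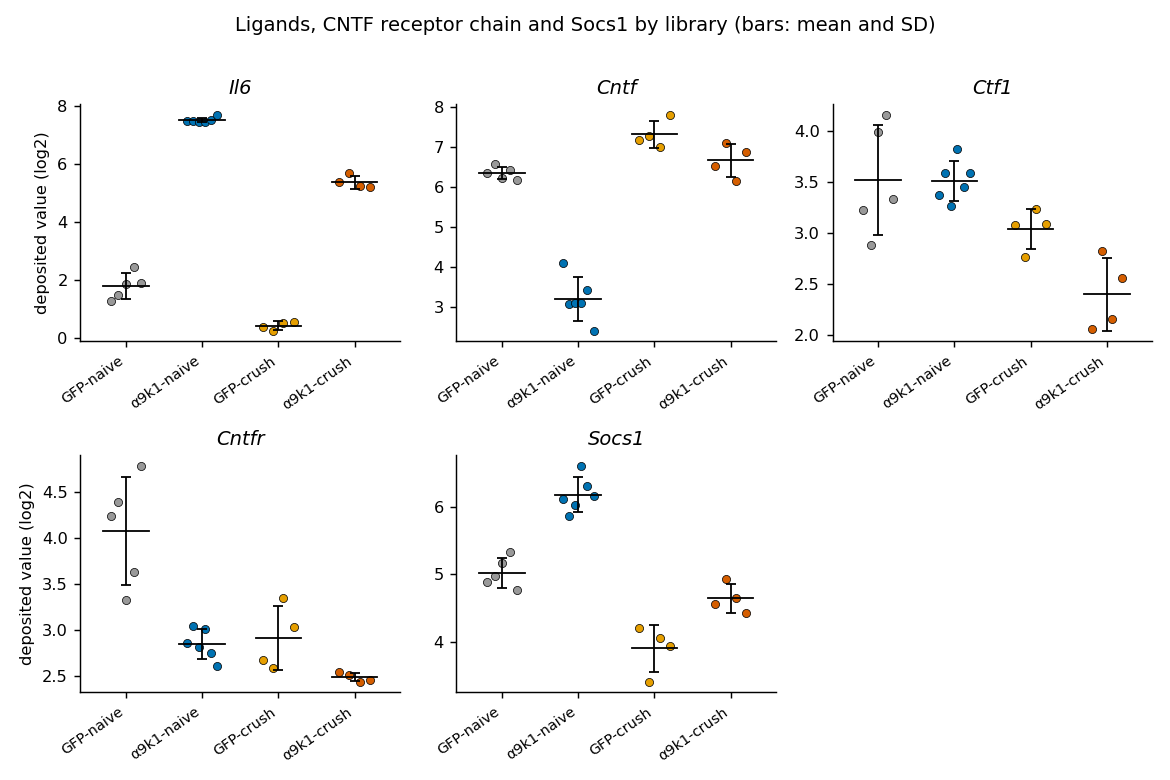
Deposited log2 values (y axis, a separate scale in each panel) of the ligands Il6, Cntf and Ctf1, the receptor chain Cntfr and the inhibitor Socs1, with 1 point per library and bars for the mean and SD. All α9k1 libraries lie at or above 5.19 for Il6 and all GFP libraries at or below 2.43, while Cntf is lowest in the 6 α9k1-naive libraries.

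Among the other JAKs and STATs, Stat2, a STAT of interferon signalling, was higher with α9k1 in naive DRGs (log2FC 0.42, SE 0.17), and after crush its log2FC was 0.05 (SE 0.37, limma adjusted p = 0.982) with covariates and 0.56 (SE 0.15, limma adjusted p = 0.00549) without, so that the call depended on the covariates. In GFP animals crush raised Tyk2 (0.55, SE 0.21) and Stat5a (0.58, SE 0.21) and lowered Stat6 (-0.36, SE 0.11). Exons of Stat6 overlap those of Nab2 on the other strand, and the libraries do not keep strand. Jak3 and Stat4 were not in the table.

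Of 12 measured further inhibitors, 5 were higher with α9k1 in naive DRGs and none was lower, where 11.4% of all genes were higher and 17.6% lower. These were Ptpn1 (log2FC 1.36, SE 0.19) and Ptpn2 (0.82, SE 0.19), phosphatases that dephosphorylate JAKs and STATs, Socs1 (1.23, SE 0.14), Socs5 (0.88, SE 0.19) and Pias4 (0.67, SE 0.19). For Pias4 the value without covariates was -0.01. Socs1 was also the one called after crush (1.84, SE 0.30, limma adjusted p = 0.00864, beside 0.74 without covariates), and it was lower with crush in GFP animals (-1.09, SE 0.14). Without covariates 3 of the 12 were higher and 3 lower after crush, close to the 29.6% and 28.3% of all genes in that fit. Ptpn6, a phosphatase most abundant in blood cells, rose with crush in GFP animals (0.82, SE 0.17) and in α9k1 animals (1.24, SE 0.31, beside 0.77 without covariates). Ptpn11, which encodes SHP2, fell slightly with crush in GFP animals (-0.30, SE 0.09).

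Of 28 measured genes listed as STAT3 targets, 22 were higher with α9k1 in naive DRGs and none was lower. Their median log2FC was 1.15, beside -0.08 for all genes, of which 11.4% were called higher and 17.6% lower. The listed targets with the largest change were Myc (3.01, SE 0.21), the stress gene Gadd45g (2.86, SE 0.15), the interferon regulatory factor Irf1 (2.68, SE 0.12) and the adhesion molecule Icam1 (2.43, SE 0.14). After crush 6 were higher and none was lower, where 0.728% of all genes were called higher and 0.182% lower. The largest were Myc at 3.20 (SE 0.46), Irf1 at 2.74 (SE 0.25), Cebpb at 2.73 (SE 0.35) and Gadd45g at 2.66 (SE 0.32). Without covariates these were at 2.65, 2.45, 1.81 and 1.82, and 19 of the 28 were higher and 1 was lower there. That fit called 29.6% of all genes higher and 28.3% lower. The list was drawn from general knowledge with earlier results of these data known, many of its genes answer to other factors as well, and Fos, Junb and Ier3 are also immediate early genes.

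Crush in GFP animals lowered 14 of the 28 and raised 2, where 15.7% of all genes were called lower and 7.39% higher. Their median log2FC was -0.40 beside -0.08 over all genes. The largest were Gadd45g (-1.48, SE 0.15), Fos (-1.38, SE 0.15), Nfil3 (-1.37, SE 0.31) and Junb (-1.20, SE 0.17), and the 2 raised were Icam1 (0.82, SE 0.14) and Sbno2 (0.43, SE 0.16). In α9k1 animals crush lowered 8 and raised none, where 5.27% of all genes were called lower and 4.47% higher. Among the 8 were the neuropeptide galanin gene Gal (-3.92, SE 0.72, with overlapping groups), Gadd45g (-1.67, SE 0.26), the protease inhibitor gene Timp1 (-1.67, SE 0.25) and Cebpd (-1.05, SE 0.28). Without covariates these 4 were at -1.72, -2.25, -1.68 and -1.53, and 21 of the 28 were lower and 2 higher. That fit called 27.1% of all genes lower and 28.5% higher.

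**Figure D4:**
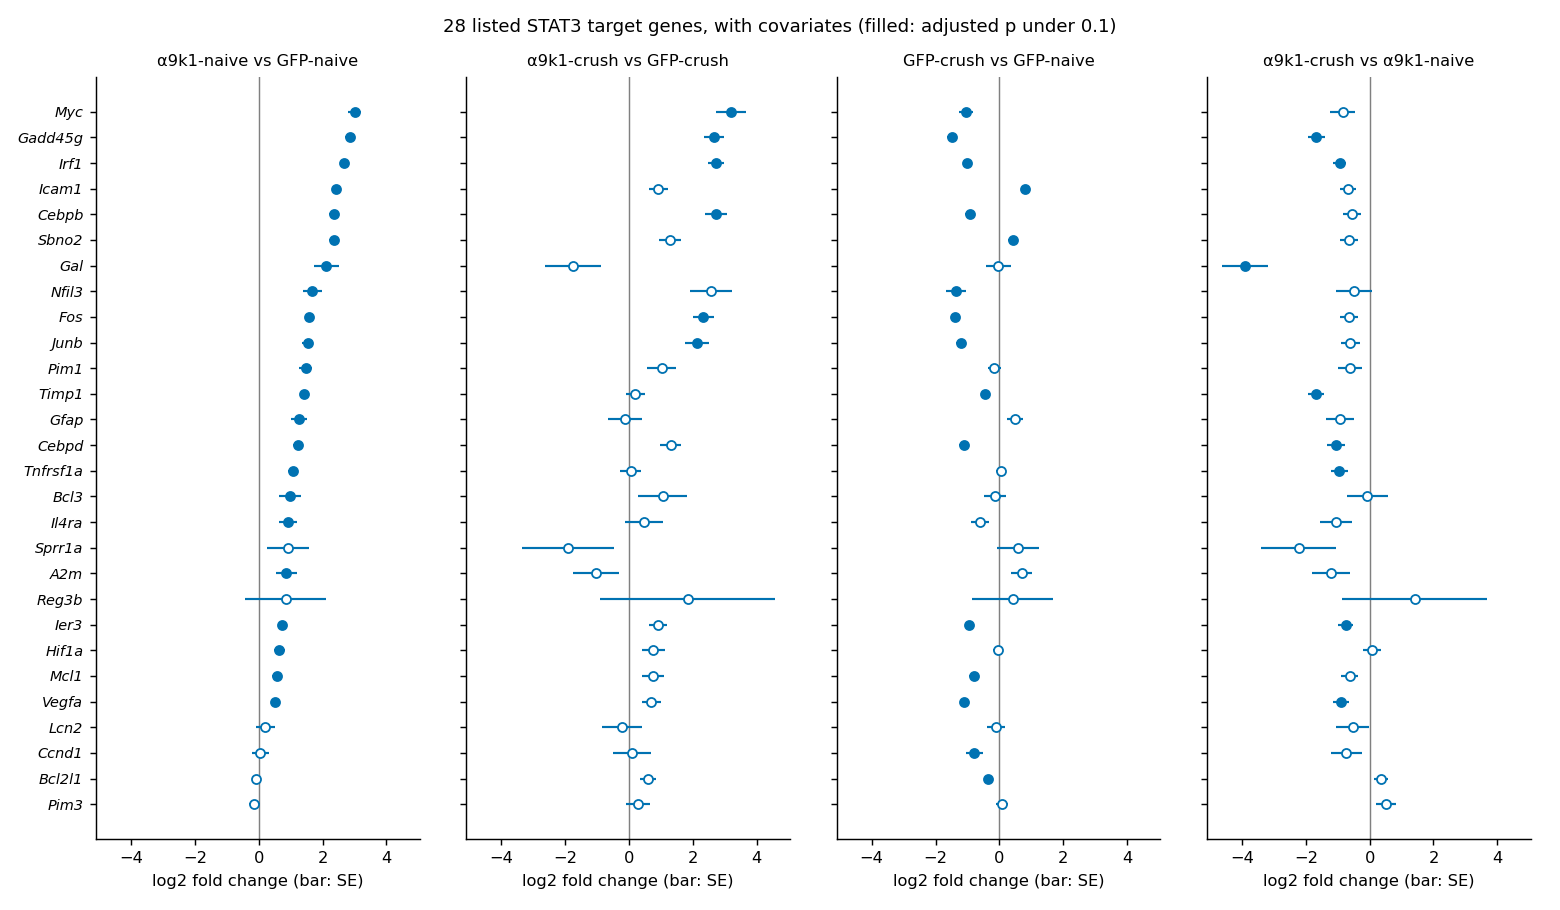
The log2 fold change (x axis) of the 28 listed STAT3 target genes in the 4 comparisons, with covariates, bars for the SE and filled circles where the adjusted p was under 0.1, ordered by the first panel. Filled circles lie right of 0 for 22 genes in the first panel and 6 in the second, and left of 0 for 14 and 8 genes in the crush panels, where 2 lie right of 0 in the third.

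Other gene groups were counted in the same comparisons. Over all genes, 11.4% were called higher and 17.6% lower with α9k1 in naive DRGs, and 0.728% and 0.182% after crush. With crush, 7.39% were called higher and 15.7% lower in GFP animals, and 4.47% and 5.27% in α9k1 animals. In naive DRGs all 14 immediate early and dissociation genes were higher with α9k1, as were 9 of 12 macrophage markers, while 8 of 15 glial markers were lower and 3 higher and all 6 fibroblast and 5 endothelial markers were lower. After crush 11 of the 14 immediate early genes were higher with α9k1 and no marker of these 4 cell types was called in limma, where 2 glial, 1 macrophage, 2 fibroblast and 0 endothelial markers had an unadjusted p under 0.05. Without covariates 10 of 15 glial markers were lower and 1 higher there, as were 3 and 2 of 12 macrophage markers. For endothelial markers the counts were 4 and 0 of 5, and for fibroblast markers 0 and 1 of 6. That fit called 28.3% of all genes lower and 29.6% higher, and 13 of the 14 immediate early genes higher. Crush in GFP animals lowered all 14 immediate early genes and raised 9 of 12 macrophage markers, and crush in α9k1 animals lowered 5 of the 14 and raised 2 of the 12. Crush in GFP animals also lowered 5 of 15 glial and 5 of 6 fibroblast markers and raised 1 glial marker, while limma called 0 of the 5 endothelial markers and 0 had an unadjusted p under 0.05. In α9k1 animals crush raised 6 glial, 4 fibroblast and 2 endothelial markers and lowered 4 glial markers. Without covariates all 14 immediate early genes and 6 glial markers were lower with crush in α9k1 animals. Higher there were 6 glial, 4 macrophage, 3 fibroblast and 2 endothelial markers. That fit called 28.5% of all genes higher and 27.1% lower. Of 15 neuronal markers, 1 was higher and 4 were lower with α9k1 in naive DRGs. With crush 7 were higher and 1 lower in GFP animals, and 4 were higher in α9k1 animals. Between α9k1-crush and GFP-crush limma called 0, and 1 had an unadjusted p under 0.05. Without covariates 6 were higher and 1 lower there, and 9 were higher and 1 lower with crush in α9k1 animals. The log2 of the summed level of the immediate early genes was 12.22 to 12.52 in GFP-naive, 13.67 to 14.11 in α9k1-naive, 10.94 to 11.40 in GFP-crush and 12.33 to 12.96 in α9k1-crush. That of the macrophage markers was 9.12 to 9.71, 10.69 to 11.19, 11.25 to 11.90 and 10.86 to 11.60 in the same order. The glial sum was 15.83 to 16.20, 16.34 to 16.84, 15.17 to 15.51 and 14.55 to 15.21, so that in naive DRGs it was higher in every α9k1 library than in any GFP library although more glial markers were called lower than higher. The neuronal sum was 13.54 to 13.92, 13.19 to 13.60, 14.13 to 14.50 and 14.09 to 14.51. The fibroblast sum was 9.45 to 9.76, 6.78 to 8.26, 8.14 to 8.45 and 7.95 to 8.37, and the endothelial sum 6.54 to 7.08, 4.10 to 5.98, 6.47 to 7.38 and 4.37 to 6.26. The part of these genes and cells in the differences was not tested.

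Over the 19 libraries, the genes whose pattern was most like that of Socs3 were Myc (Pearson r = 0.997), Zfp36 (0.997) and Irf1 (0.995), and after each group's mean was removed r was 0.869, 0.925 and 0.715. For Stat3, Ifit2 (0.972) and Gna13 (0.968) were among the nearest, with 0.211 and 0.551 within groups. For Osmr they were Tpm3 (0.946), Nr1d1 (0.943) and Gbp7 (0.941), for Jak2 Trim25 (0.958), Nr1d1 (0.949) and Gm4887 (0.942), and for Socs2 Pdk4 (0.958), Idi1 (0.952) and Atf4 (0.946). For Il6st they were Slc25a36 (0.925), Rrm2b (0.925) and Abi2 (0.922), and for Lifr Foxo1 (0.943), Gm5835 (0.932) and Lpar6 (0.920). Jak1 (Gm17887 at 0.881, Atpaf1 at 0.848, Gm42816 at 0.833) and Stat5b (Copg2 at 0.812, Osbpl6 at 0.780, Polr2a at 0.774) had no gene as close. Stat3 and Socs3 had r = 0.95 over all libraries and 0.01 within groups, so that their likeness lay between groups. The libraries share groups and quality, and these values are a description of 19 libraries.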

How the data were processed

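RNA was measured in 19 libraries of sorted DRG cells, grouped by their labels. According to the methods of the study, the authors aligned SMART-Seq v4 reads to mm10/GRCm38 with STAR, filtered with SAMtools, counted with Salmon, removed genes with low counts and normalised with cqn. The log2 values deposited by the authors cover 12629 genes, from -0.77 to 16.7. Gene names come from the authors' deposited gene table in the same row order, checked through Fermt1 (kindlin-1), whose row separated α9k1 from GFP libraries by the largest gap (4.38). That table's comparison columns (log2 fold changes, p-values, adjusted p-values) were not used. The authors' deposited library metrics hold counts, fractions, percentages and ratios, and 5 columns on duplicates hold values of a neighbouring column. Depth behind single values is unknown, as the values are normalised.

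One limma fit (limma 3.58.1, R 4.3.3) took all 19 libraries, the 4 groups and the first 3 principal components of the 48 scaled metrics, with Benjamini-Hochberg adjustment over all genes and a threshold of 0.1, the study's. Every SE, interval and adjusted p is from limma. The study's model also had batch, which is not given in the sources used here. Fold changes are limma coefficients on the deposited log2 values, adjusted for the covariates, and can differ from the difference of the group means in size and sign. Those without covariates are the differences of the group means. The test was tried on simulated data. Named genes are the 9 genes, all ligands, receptor chains, JAKs and STATs listed, at most 4 called genes of other lists with the largest change per comparison, and the 3 nearest genes by Pearson r, except for some genes that are not reported here. Fermt1 and Itga9 are also named, as the genes that the vectors carried. Members and lists were chosen with earlier results of these data known. Tables and figures used Python 3.11.15, pandas 2.3.3, numpy 2.4.6 and matplotlib 3.10.9. Alternatives were no covariates, a filter on the lowest 25% of genes, quantile normalisation, median centring, array weights, a replicate block, the 2 groups alone and leaving out each library.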

Additional observations from a re-analysis of the deposited data

Results flagged for a closer look

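In 84 groups of 4 to 6 libraries examined over 21 genes, 6 held a library that stood apart from its group, and chance sets apart about 1 in 20. Osmr was lowest in GFP-naive replicate 1 (1.78), Stat3 highest in GFP-crush replicate 3 (6.51) and Stat5b lowest in α9k1-crush replicate 4 (4.22). Il6 was highest in α9k1-naive replicate 6 (7.67), Tyk2 lowest in α9k1-crush replicate 1 (2.68) and Stat5a lowest in α9k1-crush replicate 2 (2.81).

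The α9k1 effect differed between crushed and naive DRGs for 3 of the 28 measured STAT3 targets, by the interaction term of limma. That term called 2.20% of all genes. For the 3 targets the effect was lower after crush by a log2 difference of -1.50 for Icam1 (SE 0.28, limma adjusted p = 0.0221), -1.22 for Timp1 (SE 0.28, limma adjusted p = 0.0537) and -3.88 for Gal (SE 0.82, limma adjusted p = 0.0379). Without covariates these were -1.93, -1.41 and -2.08.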

How the results depend on the processing

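Of the 13 calls of single genes, 13 were kept without covariates and with array weights, 12 with quantile normalisation, 11 with median centring and 6 with the 2 compared groups alone, and all 11 whose genes passed the filter on low values. The calls of Osmr could not be tried there, as the filter removed that gene. In naive DRGs the count of 6 called α9k1 effects stayed between 5 and 7. After crush the count of 1 became 7 without covariates and 0 with the 2 groups alone. For crush in GFP animals the count of 3 became 0 with the 2 groups alone. For crush in α9k1 animals the count of 3 became 7 without covariates, 1 with the replicate block (Jak1, higher at 1.39, while Osmr, Socs2 and Stat3 lost their calls) and 0 with the 2 groups alone. For the interaction the count of 0 became 6 without covariates and 1 with median centring or array weights. It could not be fitted with 2 groups alone. The 2-group fits called 0 genes in all after crush, 1 for crush in GFP and 34 for crush in α9k1 animals, beside 115, 2917 and 1230. The variance factor of the α9k1 effect after crush was 3.11 with covariates and 0.5 without. The cause of these changes was not tested.

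Leaving out 1 library gave 5 to 6 calls in naive DRGs, 1 to 1 after crush, 2 to 3 for crush in GFP, 0 to 4 for crush in α9k1 animals and 0 to 1 for the interaction.

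The sign changed for differences that were not called with covariates, and those of Stat5b without covariates were called with the other sign. For α9k1 in naive DRGs it did so for Il6st, at 0.42 without covariates, 0.02 with median centring, 0.11 with the replicate block and 0.07 with 2 groups, and for Lifr at 0.00 (quantile) and 0.03 (block). For α9k1 after crush it did so for Stat5b at 0.40 without covariates and, with 2 groups, for Lifr at 0.65, Osmr at -0.91, Jak2 at -0.02 and Stat5b at 0.29. For crush in GFP animals Lifr was at 0.04 and Jak2 at -0.15 without covariates, Jak1 at 0.03 with median centring and Lifr at 0.77 with 2 groups. For crush in α9k1 animals Il6st was at 0.32 and Stat5b at 0.35 without covariates, and Lifr at 0.09 and Jak1 at -0.06 with 2 groups. The interaction without covariates was 0.63 for Stat5b and -0.29 for Socs3. With 1 library left out, values spanned 0 for Il6st (-0.13 to 0.05) and Lifr (-0.13 to 0.15) in naive DRGs, and after crush for Lifr (-0.63 to 0.08) and Osmr (-0.24 to 0.70). They did so for Jak1 (-0.20 to 0.06), Jak2 (-0.02 to 0.43) and Stat5b (-0.25 to 0.03) for crush in GFP, for Il6st (-0.46 to 0.14) and Stat5b (-0.50 to 0.06) for crush in α9k1 animals, and for Lifr (-0.52 to 0.17) and Stat5b (-0.53 to 0.12) in the interaction.

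The replicate numbers did not pair the libraries: deviations of libraries with the same number correlated at -0.27 to 0.15 (median 0.02), and 3 of 19 libraries correlated best with their own number. With the replicate block 9 of the 13 calls were kept. The counts with the block were 5, 1, 3, 1 and 0 in the order above.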
